A study of Mus musculus with 3 samples.

Results

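Stimulated helper T cells from mice labelled Rbpj-/- were set against the same cells from wild-type (WT) mice. The comparison is 1 array labelled Rbpj-/- CD4 minus 1 array labelled WT CD4, out of 3 arrays in the series, and another array, labelled Dll1-/- CD4, is given beside them as a further value. All 3 samples were total RNA of CD4+ T cells collected after 2 days of stimulation, from female C57BL/6 mice aged 8 weeks, the control being wild type at both loci. The labels give neither the stimulus, nor the allele, nor the promoter that drives any Cre, nor the number of mice pooled, so it is not stated which cells of the mice lacked Rbpj. With 1 array per genotype there is no replicate and no test, and every difference below describes these arrays. Of 20887 genes with a named probe, 11579 were well above background on both arrays and are the genes compared.

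Rbpj is the DNA-binding protein of the Notch pathway. When a ligand on a neighbouring cell engages a Notch receptor, gamma-secretase releases the receptor's intracellular part, which enters the nucleus, joins Rbpj and a Mastermind coactivator, and turns on target genes such as the Hes and Hey repressors and the Deltex gene Dtx1. Without Notch, Rbpj can sit on the same sites with corepressors and hold genes down. In helper T cells the pathway is known for its part in Th2 differentiation, where Il4 and Gata3 are targets, in Th1 and follicular helper differentiation, and in the survival of activated cells.

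A level here is log2 signal relative to the 75th percentile of its own array (control probes left out), so 0 marks that percentile. A difference is the Rbpj-/- level minus the WT level on the log2 scale, and 1.00 is 2-fold. The 75th percentile of log2 signal was 7.47 in WT, 7.28 in Dll1-/- and 7.14 in Rbpj-/-, and between 46.6% and 50.1% of probes were well above background. Probes printed 10 times over the array give the measurement error of a difference: its SD over spots had a median of 0.076 and a 95th percentile of 0.253 over 217 probes. The 3 arrays lay on 1 slide and were scanned together, per the file headers. The spot error is technical and says nothing of the spread between mice. Feature Extraction placed the spike-in slope out of its range on all 3 arrays (0.715 in WT, 0.751 in Dll1-/- and 0.787 in Rbpj-/-). The array's rows were split at the middle into front rows, with the low row numbers, and back rows, and the rows of a gene's probes are given as a check on position.

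At least 2-fold higher levels in Rbpj-/- were found for 139 genes, 1.2% of 11579, and at least 2-fold lower levels for 226 genes, 1.95%. At 1.5-fold the numbers were 517 higher (4.46%) and 769 lower (6.64%), and 88.9% of genes lay within 1.5-fold. The median gene differed by -0.07, and 60.3% of genes had a difference below 0. Scaling moves all genes together. Scaled to each array's median, every difference shifted by -0.17 and the split was 92 higher against 356 lower. Scaled to the spike-in probes, every difference shifted by -0.59 and the split was 33 against 1450, so a difference between 0 and 0.59 here turns negative on that scale. For this reason gene groups are read against the median gene, which shifts with them, and their counts against the 1.2% higher and 1.95% lower of all genes. Differences were smaller after normexp background correction with quantile normalization: of the 139 genes 41 were still 2-fold and 84 still 1.5-fold higher, of the 226 genes 70 and 186 lower, and 0 of the 365 turned the other way.

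**Figure D1:**
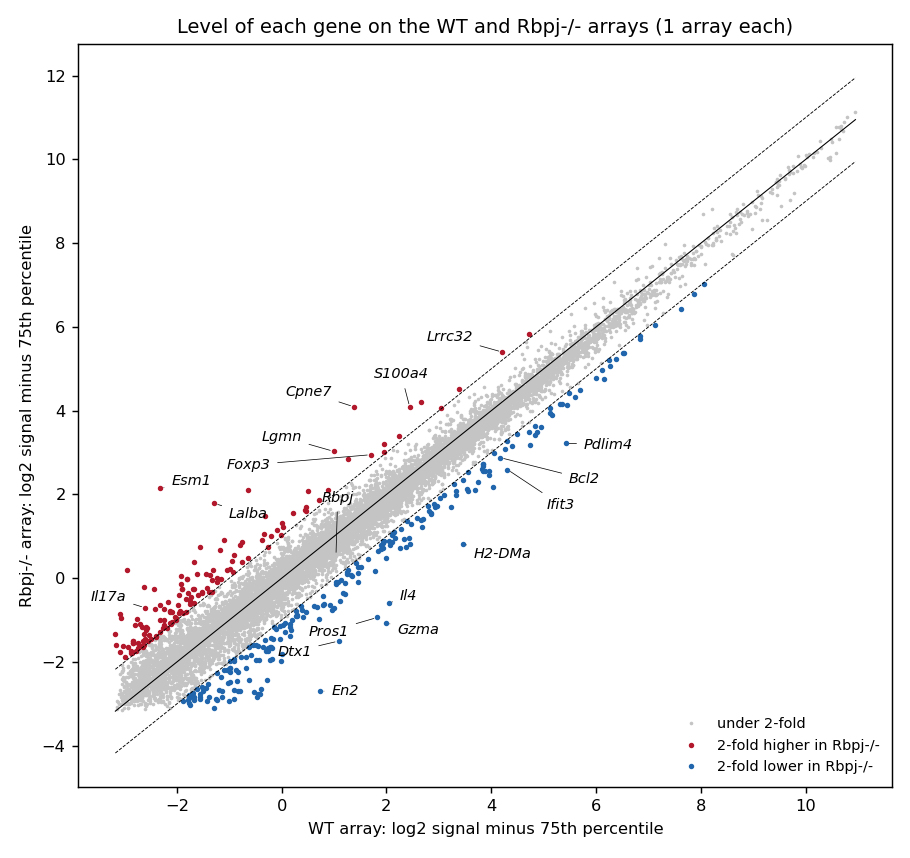
Each point is 1 of 11579 genes, with its level on the WT array (x axis) and on the Rbpj-/- array (y axis), both as log2 signal minus the array's 75th percentile. The solid line marks equal levels and the dashed lines 2-fold, beyond which lie 139 genes above (red) and 226 below (blue), and the empty corner at low levels is set by the rule that probes be well above background on both arrays.

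Genes at 2-fold higher were mostly dim, and genes at 2-fold lower were found at every level. Among the tertile of genes with the lowest mean level 106 were higher and 102 lower, and among the tertile with the highest level 11 were higher and 63 lower. The median difference went from 0.02 in the lowest tertile through -0.06 to -0.13 in the highest. Shares differed with array position among dim genes: in the lowest tertile, 3.57% were higher and 3.81% lower among genes with probes in the front rows, against 2.20% and 1.85% in the back rows. In the highest tertile the lower genes took 1.76% and 1.69% in the same 2 parts. Genes with probes in the back rows and genes of the highest tertile are therefore given separately below. The part of array position in the dim genes was not tested further.

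**Figure D2:**
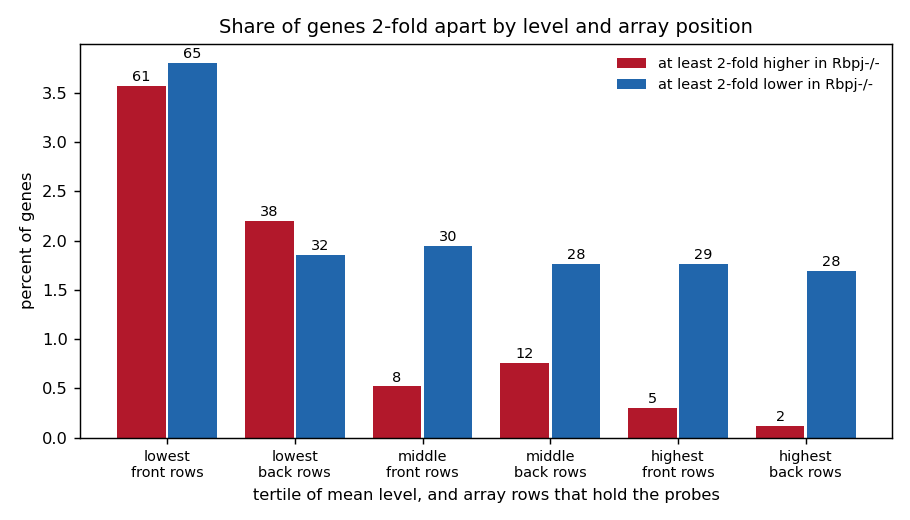
Bars give the percent of genes at least 2-fold higher (red) or lower (blue) in Rbpj-/- by tertile of mean level and by the array rows that hold the gene's probes, with the number of genes on each bar. The lower genes keep about the same share in both parts of the array at middle and high levels, while the dim genes are more often apart in the front rows.

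The targeted gene was measured by 2 probes. Rbpj read 1.04 in WT, 1.32 in Dll1-/- and 0.53 in Rbpj-/-, a difference of -0.50. Its probe in the front rows differed by -0.35 and its probe in the back rows by -0.66. The remaining signal was well above background. The sources used here give neither the deleted part of the transcript nor the place of the probes relative to it, so the level neither checks the label nor measures the loss.

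Other parts of the Notch pathway differed little, apart from single targets. All 4 measured receptors and ligands lay below WT (60.3% of all genes did), and 0 were 1.5-fold apart. Notch1 lay below WT by 0.25 (2.87 in WT, 2.61 in Rbpj-/-), Notch2 by 0.31, the ligand Dll4 by 0.51 and the ligand Jag2 by 0.25. Of the other members, 5 of the 10 with a probe, among them Notch3, Jag1 and Dll1 itself, were not well above background on either array. The 19 measured genes that process or regulate Notch receptors had a median of -0.06, next to -0.07 for all genes, and 1 of them was 2-fold apart. That gene, the E3 ligase Neurl3, read -2.31 in WT, -1.99 in Dll1-/- and -0.63 in Rbpj-/- (front rows). Among 21 Rbpj partners, which include coactivators and corepressors, the median was 0.00 and 0 were 2-fold apart. Maml3, a Mastermind coactivator, was the furthest at 0.72, with its probes at 0.34 and 1.09.

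Known Notch targets split between a few lower genes and several near or above WT. The list held 11 measured members with a median of -0.37, of which 2 were 2-fold lower and 0 higher. The 8 members with probes in the front rows had a median of -0.15, and with no filter on dim probes the list of 19 lay 0.0021 above the median gene. Dtx1, a Deltex ubiquitin ligase and a direct Notch target, read 1.09 in WT, 1.07 in Dll1-/- and -1.5 in Rbpj-/-, a difference of -2.59 (front rows). The WT and Dll1-/- arrays thus read Dtx1 alike and the Rbpj-/- array stood apart. Bcl2, the founding anti-apoptotic gene, read 4.17, 4.10 and 2.88 in the same order, a difference of -1.29 (front rows). Gata3, the Th2 master regulator, differed by -0.37 and Myc by -0.45. Dtx4, another Deltex gene, read -0.41 in WT and 0.47 in Rbpj-/-, a difference of 0.88 in the opposite direction to Dtx1. The defining targets Hes1, Hey2, Heyl and Nrarp were not well above background on either array.

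The promoter of Dtx1 is shown because this gene carries the largest difference among the Notch targets, and that of Foxp3 because 1 of its start windows holds the Rbpj motif. Both windows run from 250 bases before to 50 bases after a RefSeq gene start of build GRCm38.p6, 5′ to 3′ on the gene's strand. Capitals mark the Rbpj motif GTGGGAA on either strand. The Dtx1 window holds neither GTGGGAA nor its core TGGGAA, and the Foxp3 window shown, chosen for its motif, holds 1 match, 4 bases after the start. A second RefSeq start window of Foxp3, at chrX:7580233-7580532, holds 0 matches of the core. Isg15, which differed by -1.31, has its window shown further below for another motif. That window holds 2 matches of the core, and 1 of them, 105 bases before the start, is the longer form.
Dtx1 promoter, chr5:120711620-120711919, - strand: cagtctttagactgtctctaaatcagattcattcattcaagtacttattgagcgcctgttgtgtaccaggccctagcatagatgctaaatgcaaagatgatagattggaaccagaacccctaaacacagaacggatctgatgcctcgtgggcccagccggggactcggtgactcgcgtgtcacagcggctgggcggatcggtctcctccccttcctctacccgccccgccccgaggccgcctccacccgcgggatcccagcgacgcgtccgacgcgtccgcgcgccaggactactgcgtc
Foxp3 promoter, chrX:7579426-7579725, + strand: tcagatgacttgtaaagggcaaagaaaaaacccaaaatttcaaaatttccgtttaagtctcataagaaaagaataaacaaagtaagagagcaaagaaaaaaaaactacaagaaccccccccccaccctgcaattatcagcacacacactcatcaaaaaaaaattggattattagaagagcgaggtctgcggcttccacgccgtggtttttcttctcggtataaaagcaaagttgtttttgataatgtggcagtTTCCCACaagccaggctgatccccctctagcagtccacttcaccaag
No match says only that these letters are absent from this window. Over promoters of all genes measured, 23.1% held the core TGGGAA and 5.98% the longer form. Among promoters of the 2-fold lower genes the shares were 21.6% and 4.59%, and among those of the 2-fold higher genes 27.3% and 10.9%. At 1.5-fold the shares of the longer form were 5.34% among lower and 7.03% among higher genes.

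Genes whose probe is printed 10 times, spread over both parts of the array, give differences that do not rest on 1 spot or 1 position. Of 211 such genes, 2 were 2-fold higher and 9 were 2-fold lower (0.948% and 4.27%), against 1.2% and 1.95% of all genes. The errors that follow are SDs over spots of 1 array pair.

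Il4, the cytokine that defines Th2 cells, was read at 10 spots between rows 23 and 370. Its level was 2.04 ± 0.036 in WT and -0.60 ± 0.091 in Rbpj-/-, with 2.29 in Dll1-/-. The difference was -2.64 ± 0.099, and single spots ranged from -2.82 to -2.46. Every spot thus put Il4 well below WT, in both parts of the array. En2, an Engrailed homeobox gene, differed by -3.42 ± 0.198 over 8 spots, from 0.75 in WT and 0.85 in Dll1-/- to -2.67.

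Several growth factor genes stood among the repeated probes. Csf2, which encodes GM-CSF, read -0.16 in WT, 0.51 in Dll1-/- and -1.44 in Rbpj-/-, a difference of -1.28 ± 0.128. Fgf2, a fibroblast growth factor, read 5.12, 5.53 and 3.94 and differed by -1.18 ± 0.084. Ctf1, a cytokine of the IL-6 family, differed by -1.21 ± 0.078. The probe of Csf1, the macrophage colony-stimulating factor, differed by -1.08 ± 0.083, and its 3 probes together by -1.15. For each of these 4 genes all spots lay below WT.

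Other repeated probes touched interferon and antigen presentation genes. Tap1, which pumps peptides to MHC class I, differed by -0.87 ± 0.049, and Psme1, an activator of the proteasome, by -0.54 ± 0.036. Igtp, an interferon-inducible GTPase, read 7.71 in WT and 7.04 in Rbpj-/-, a difference of -0.67 ± 0.050. Calhm6 read 2.10 in WT, 1.71 in Dll1-/- and 0.88 in Rbpj-/-, a difference of -1.22 ± 0.070. The CD8 coreceptor chain Cd8a differed by -1.28 ± 0.202 and the transferrin receptor Tfrc by -0.67 ± 0.089 at this probe, while the 3 probes of Tfrc together gave -0.44.

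Higher repeated probes were fewer. Slc26a11, an anion transporter, read 2.25 ± 0.029 in WT, 2.37 in Dll1-/- and 3.39 ± 0.057 in Rbpj-/-, a difference of 1.14 ± 0.055. Pparg, a nuclear receptor, differed by 1.32 ± 0.354, from -2.32 to -0.99. Its signal was low and its single spots ranged from 0.69 to 1.85. Il10, the regulatory cytokine, differed by 0.70 ± 0.111 and Socs2, an inhibitor of cytokine signals, by 0.61 ± 0.076 at this probe.

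**Figure D3:**
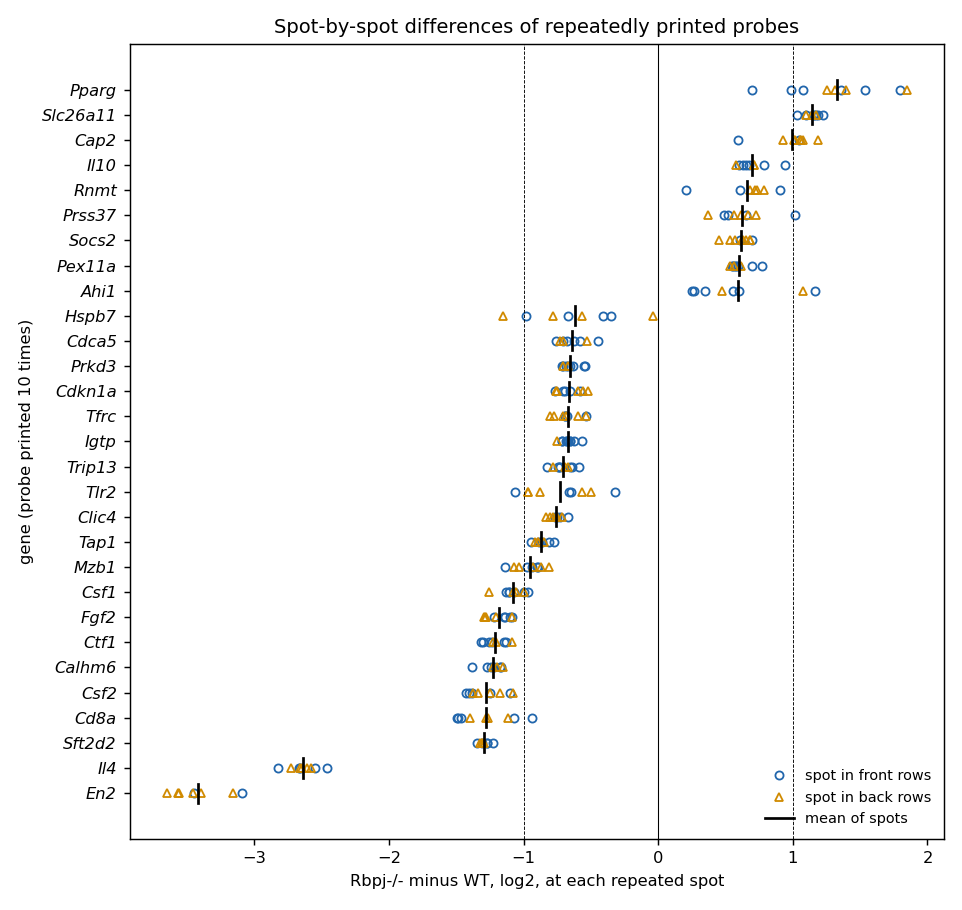
For the 29 repeatedly printed probes at least 1.5-fold apart, each symbol is the difference (log2, Rbpj-/- minus WT, x axis) at 1 spot, with circles for the front rows and triangles for the back rows, and the bar is the mean. The 10 spots of Il4 lie between -2.82 and -2.46 and those of Slc26a11 between 1.03 and 1.22, with both parts of the array mixed.

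Single cytokines differed in both directions, and the 2-fold lower ones included the signature cytokines of Th1 and Th2 cells. Of 14 measured interleukins and growth factors 6 were 2-fold lower and 1 was 2-fold higher, with a median of -0.32, and 6 lay above WT. The 4 members with probes in the front rows had a median of -0.27 and the 4 in the back rows a median of 0.37. Ifng, the Th1 cytokine, read 3.85 in WT, 3.96 in Dll1-/- and 2.56 in Rbpj-/-, a difference of -1.29 (spots in both parts). Il2, the T cell growth factor, read 1.45, 1.87 and 0.26 and differed by -1.19 (back rows). Lif, an IL-6 family cytokine, read 6.00, 6.34 and 4.78 and differed by -1.22 (front rows). In each of these 3 genes, as in Il4 and Csf2, the Dll1-/- array read above WT and the Rbpj-/- array below it. Il17a, the Th17 cytokine, went the other way with -2.61, -2.75 and -0.70, a difference of 1.90 (back rows). Il13 was well above background in WT alone, at least 1.44-fold higher than in Rbpj-/-. Il5 and Il6 were not well above background on either array.

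The Th1 list had 17 measured members, of which 6 were 2-fold lower (1.95% of all genes were) and 0 higher (1.2% of all genes were), with a median of -0.33. Tbx21, which encodes the Th1 master regulator T-bet, read 3.29 in WT, 3.53 in Dll1-/- and 2.25 in Rbpj-/-, a difference of -1.04 (back rows). Eomes, its T-box relative, read 0.78, 0.44 and -0.43, and its 2 probes gave -1.22 on average (back rows). Nkg7, a cytotoxic granule membrane protein, read 3.74, 3.58 and 2.29, with -1.65 at the probe in the front rows and -1.24 at the probe in the back rows. Il12rb1, a chain of the IL-12 receptor, differed by -0.85, with probes at -0.87 and -0.83. Not all Th1 genes followed: Stat4 differed by -0.15, Ccl5 by -0.09, Cxcr3 by 0.57 and Il18r1 by 0.82. The 4 members with probes in the back rows had a median of -1.13 and the 7 in the front rows a median of -0.10.

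Il4 stood apart from the other Th2 genes. The list had 13 measured members, 1 of them 2-fold higher and 1 lower, with a median of 0.11. At 1.5-fold 6 were higher and 3 lower. The 5 members with probes in the front rows had a median of -0.37 and the 4 in the back rows a median of 0.22. Il4ra, the receptor of IL-4, read 2.30 in WT, 2.35 in Dll1-/- and 1.38 in Rbpj-/-, a difference of -0.91 with probes at -1.26 and -0.57. Maf, an activator of the Il4 gene, read 0.93, 1.17 and 1.66, a difference of 0.73 that runs opposite to Il4. Il1rl1, the IL-33 receptor, differed by 0.81, Il17rb by 0.72 and Il24 by 0.70.

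Th17 genes lay above the median gene. The median of 11 measured members was 0.36, which becomes -0.22 under spike-in scaling, and 3 were 2-fold higher and 0 lower. Ccr6, the chemokine receptor of Th17 and some regulatory cells, read 1.26 in WT, 1.88 in Dll1-/- and 2.84 in Rbpj-/-, a difference of 1.58 (front rows). Its levels rank in the order WT, Dll1-/-, Rbpj-/-, while those of Il17a, given above, were close in WT and Dll1-/-. The receptor genes Il23r and Il1r1 were not well above background on either array.

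**Figure D4:**
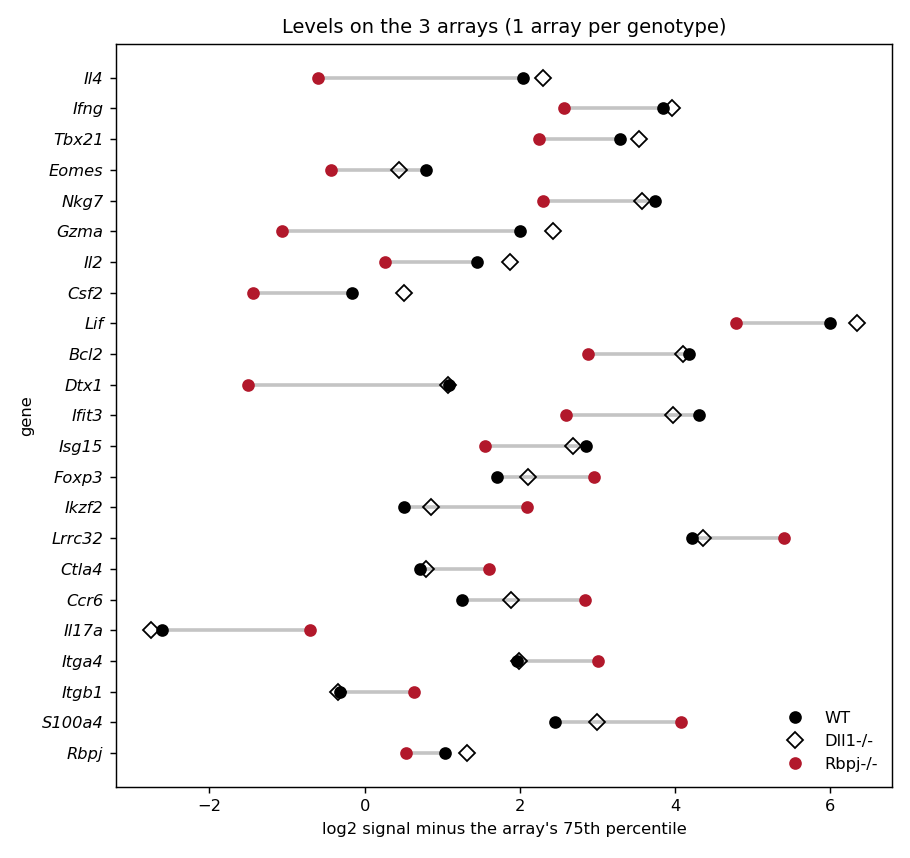
Levels (x axis, log2 signal minus the array's 75th percentile) of 23 genes, chosen after their values were seen, on the WT (black circle), Dll1-/- (open diamond) and Rbpj-/- (red circle) arrays. For Il4, Ifng, Gzma, Bcl2 and Dtx1 the Dll1-/- symbol lies next to WT and the Rbpj-/- symbol far below, and for Foxp3, Ikzf2, Ccr6 and S100a4 the Rbpj-/- symbol lies above both.

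Regulatory T cell genes read higher for the lineage regulators and several surface molecules. Of 23 measured members 4 were 2-fold higher and 1 was 2-fold lower, with a median of 0.33, which becomes -0.26 under spike-in scaling. Foxp3, the regulator that defines the lineage, read 1.70 in WT, 2.10 in Dll1-/- and 2.95 in Rbpj-/-, a difference of 1.25 (front rows). Ikzf2, which encodes Helios, read 0.50, 0.85 and 2.09, a difference of 1.59 over 2 probes (back rows). Lrrc32, which encodes the surface protein GARP that holds latent TGF-beta, read 4.21, 4.36 and 5.40, a difference of 1.19 (front rows). Ctla4, the inhibitory receptor, differed by 0.89 and Il2rb, a chain of the IL-2 receptor, by 0.65, while Il2ra, the CD25 chain shared with all activated cells, differed by 0.06. Entpd1, which encodes the ATP-degrading enzyme CD39 of regulatory cells, went the other way, from 2.92 in WT and 3.22 in Dll1-/- to 1.71, a difference of -1.21 (back rows). In bulk RNA, a change in the number of cells of a type and a change in the RNA per cell cannot be told apart.

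The follicular helper list lay almost wholly above WT. Of 17 measured members 16 lay above WT, with a median of 0.33 (-0.25 under spike-in scaling), and the medians in the 2 parts of the array were 0.36 and 0.32. Ascl2, an early follicular helper regulator, was the 1 member at 2-fold, from -2.09 in WT to -1.04. Its lineage partners had smaller differences: Maf 0.73, Id3 0.73, Tox 0.70, Sh2d1a 0.69, Cxcr5 0.62 and Bcl6 0.35. Lef1 was the member below WT, at -0.22.

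Inhibitory receptors moved in both directions. Of 17 measured members 3 were 2-fold higher and 2 lower, with a median of 0.10. Klrg1, a receptor of late effector and some regulatory cells, read -1.93 in WT, -0.86 in Dll1-/- and -0.13 in Rbpj-/-, a difference of 1.80 (front rows). Tigit differed by 1.51 and Cd200r1 by 1.21, from low levels of -2.24 and -1.75 in WT (front rows). Cd160, a receptor for HVEM, read -1.29, -1.77 and -3.10 in the same order, a difference of -1.80 (back rows), and Cd274, the ligand PD-L1, differed by -0.75. Pdcd1, Btla and Lag3 differed by 0.16, 0.16 and -0.22.

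Chemokines lay below WT without exception among those measured. All 10 measured members had a difference below 0 (60.3% of all genes did), with a median of -0.73. At 2-fold 4 were lower (1.95% of all genes were). Ccl4 and Ccl3, inflammatory chemokines made by effector T cells, read 4.84 and 3.02 in WT, 4.75 and 3.14 in Dll1-/-, and 3.42 and 1.90 in Rbpj-/-. Cxcl1 differed by -1.17 (back rows), Xcl1 by -0.66 and Ccl17 by -0.80. Ccl5 was the smallest difference, at -0.09. The medians were -0.80 for 5 members in the front rows and -0.60 for 5 in the back rows.

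Receptors that guide and anchor T cells differed in both directions. Of 22 chemokine and lipid receptors 2 were 2-fold higher, Ccr6 and the leukotriene B4 receptor Ltb4r1, and 0 lower, while at 1.5-fold 3 were higher and 5 lower, with a median of -0.08. Among 24 integrins and adhesion molecules 1 was 2-fold higher and 3 were 2-fold lower, and at 1.5-fold 3 were higher and 3 lower. Itga4 and Itgb1, the chains of the integrin VLA-4, differed by 1.05 (probes 0.78 and 1.31) and 0.95 (probes 0.92 and 0.98), with probes in both parts of the array. Itga1, the collagen-binding chain that pairs with Itgb1, went the other way, from 6.84 in WT and 7.28 in Dll1-/- to 5.79 (front rows). Itgb3 differed by -1.16 over 2 probes, and Icam1, the ligand of LFA-1, read -1.73, -2.41 and -2.81.

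Interferon-stimulated genes held the most members at 1.5-fold lower levels of the 51 lists. Of 39 measured members 37 lay below WT, 8 were 2-fold lower (1.95% of all genes were), 22 were 1.5-fold lower (6.64% of all genes were) and 0 were 1.5-fold higher. The median was -0.61, with -0.72 for 14 members in the front rows and -0.65 for 20 in the back rows. After normexp the median was -0.39. Ifit3, an antiviral RNA-binding protein, read 4.31 in WT, 3.97 in Dll1-/- and 2.60 in Rbpj-/-, a difference of -1.71 (front rows). Ifit1 read 1.21, 0.93 and -0.37 and Isg15, a ubiquitin-like modifier, 2.85, 2.69 and 1.54. Irf7, the transcription factor that amplifies type I interferon, read 1.17, 0.62 and -0.34, a difference of -1.51 (back rows). In all 4 genes the Dll1-/- array lay between the others and nearer to WT.

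The group was not uniform. Zbp1, a sensor of viral nucleic acid, differed by -1.02 over 2 probes, Cmpk2 by -1.18 and Ifi44 by -1.32. Ifih1, which encodes the RNA sensor MDA5, differed by 0.07, and Samd9l by 0.00. Stat2 and Irf9, which transmit the type I interferon signal, differed by -0.80 and -0.36. Of 16 interferon-inducible GTPases 7 were 1.5-fold lower and 0 higher, led by Gbp2 (6.98 in WT, 6.04 in Rbpj-/-) and Gbp6 with 2 probes at -0.96 and -0.93. Members of these families resemble each other in sequence and may share probe signal.

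The promoters of 3 leading interferon-stimulated genes are shown because each holds the interferon-response motif several times. Capitals mark GAAANNGAA on either strand, where neighbouring matches can overlap and merge into 1 run. Ifit3 has 3 matches, which begin 155, 121 and 102 bases before the start, Ifit1 has 3, beginning 109, 103 and 84 bases before it, and Isg15 has 3, beginning 78, 72 and 66 bases before it.
Ifit3 promoter, chr19:34583279-34583578, + strand: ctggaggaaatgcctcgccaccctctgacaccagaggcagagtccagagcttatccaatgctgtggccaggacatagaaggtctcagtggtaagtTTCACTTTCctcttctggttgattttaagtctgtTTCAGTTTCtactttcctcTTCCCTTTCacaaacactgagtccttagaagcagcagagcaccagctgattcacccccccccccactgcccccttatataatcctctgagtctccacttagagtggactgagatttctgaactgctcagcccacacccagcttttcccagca
Ifit1 promoter, chr19:34640639-34640938, + strand: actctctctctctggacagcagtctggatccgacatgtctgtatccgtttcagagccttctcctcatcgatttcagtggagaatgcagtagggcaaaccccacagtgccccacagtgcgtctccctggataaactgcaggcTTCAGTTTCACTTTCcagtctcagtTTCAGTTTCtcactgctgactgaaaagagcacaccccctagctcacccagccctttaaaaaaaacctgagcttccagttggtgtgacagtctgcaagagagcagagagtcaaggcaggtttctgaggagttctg
Isg15 promoter, chr4:156200769-156201068, - strand: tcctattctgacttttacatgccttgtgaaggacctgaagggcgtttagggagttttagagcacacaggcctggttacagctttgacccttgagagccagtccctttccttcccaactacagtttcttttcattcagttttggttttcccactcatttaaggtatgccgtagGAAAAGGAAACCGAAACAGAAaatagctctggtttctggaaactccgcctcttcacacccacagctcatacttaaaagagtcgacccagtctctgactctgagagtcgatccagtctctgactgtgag
The motif was present in 19 of 35 promoters of measured interferon-stimulated genes, a list chosen for this regulation, and in 7.48% of promoters of all genes measured. Among the 2-fold lower genes 11.9% of promoters held it, and among the 2-fold higher genes 3.91%. At 1.5-fold the shares were 10.3% and 6.45%. A match describes the sequence and does not show that a factor binds there.

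Antigen presentation genes divided into an even class I group and a scattered class II group. Of 21 class I genes 19 lay below WT (60.3% of all genes did) and 0 were 2-fold apart, with a median of -0.41. At 1.5-fold 4 were lower (6.64% of all genes were). Tapbp, which loads peptide onto class I, read 4.94 in WT and 4.32 in Rbpj-/-, and the immunoproteasome subunits Psmb8, Psmb9 and Psmb10 differed by -0.57, -0.51 and -0.59. B2m, the constant chain, differed by -0.22. Among 16 class II genes 3 were 2-fold lower and 2 higher. H2-DMa and H2-DMb1, which together form the peptide editor H2-DM, read 3.45 and 2.70 in WT, 2.75 and 2.65 in Dll1-/-, and 0.82 and 1.42 in Rbpj-/- (front rows and back rows). Their antagonist chain H2-Ob read 1.69, 1.57 and 2.34, a difference of 0.65 over 2 probes. Ciita, the master regulator of class II genes, read -1.89, -1.98 and -0.25, a difference of 1.64 opposite to those of H2-Aa (-0.74), H2-Ab1 (-0.55) and H2-Eb1 (-0.55).

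Some cytotoxic granule genes were lower, while others lay near or above WT. Gzma, the granzyme of NK cells and some effector T cells, read 2.00 in WT, 2.42 in Dll1-/- and -1.07 in Rbpj-/-, a difference of -3.07 (front rows). Gzmb differed by -0.56, Prf1, the pore-forming perforin, by -0.17, Gzmk by 0.19 and Gzmc by 0.30. Serpinb6b and Serpinb9, serpin protease inhibitors of the granule compartment, differed by -1.21 and -0.65. Of 18 measured members 3 were 2-fold lower (1.95% of all genes were) and 0 higher (1.2% of all genes were), with a median of -0.14.

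Proliferation genes lay slightly but evenly below WT. Of 39 replication and S phase genes 38 lay below WT (60.3% of all genes did) and 0 were 2-fold apart, with a median of -0.43. At 1.5-fold 10 were lower (6.64% of all genes were). Cdc6, which loads the replicative helicase, differed by -0.88, Chaf1a by -0.76 and Fen1, a flap endonuclease, by -0.70. Of 39 mitosis genes 36 lay below WT and 8 were 1.5-fold lower, with a median of -0.39. Espl1, which encodes separase, read -1.55 in WT, -1.80 in Dll1-/- and -2.88 in Rbpj-/-, a difference of -1.32 (front rows), and Top2a, the mitotic topoisomerase, read -0.02, 0.02 and -0.72. Cdca8, a chromosomal passenger protein, differed by -1.02 and -0.54 at its 2 probes. Cdc25b, a phosphatase that activates Cdk1, was an exception at 0.66, as was Smc4 at 0.27. Both lists lay near 0 in Dll1-/- against WT, with medians of 0.00 and -0.03.

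The promoters of Espl1, Cdca8 and Top2a are shown as members of the mitosis list that hold its recurring element. Capitals mark the cell cycle motif TTTGAA on either strand, which begins 27 bases before the start in Espl1, 14 bases after it in Cdca8, and 179 and 23 bases before it in Top2a.
Espl1 promoter, chr15:102296043-102296342, + strand: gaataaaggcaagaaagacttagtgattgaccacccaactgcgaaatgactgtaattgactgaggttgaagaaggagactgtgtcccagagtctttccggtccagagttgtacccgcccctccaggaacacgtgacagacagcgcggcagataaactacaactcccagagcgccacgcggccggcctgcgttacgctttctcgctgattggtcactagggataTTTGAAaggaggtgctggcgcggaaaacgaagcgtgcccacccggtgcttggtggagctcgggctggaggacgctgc
Cdca8 promoter, chr4:124936868-124937167, - strand: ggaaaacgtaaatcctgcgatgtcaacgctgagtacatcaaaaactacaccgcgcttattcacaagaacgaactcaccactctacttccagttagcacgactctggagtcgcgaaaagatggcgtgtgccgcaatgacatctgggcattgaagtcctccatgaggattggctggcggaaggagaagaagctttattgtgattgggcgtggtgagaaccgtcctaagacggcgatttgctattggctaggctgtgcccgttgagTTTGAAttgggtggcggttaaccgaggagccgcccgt
Top2a promoter, chr11:99024140-99024439, - strand: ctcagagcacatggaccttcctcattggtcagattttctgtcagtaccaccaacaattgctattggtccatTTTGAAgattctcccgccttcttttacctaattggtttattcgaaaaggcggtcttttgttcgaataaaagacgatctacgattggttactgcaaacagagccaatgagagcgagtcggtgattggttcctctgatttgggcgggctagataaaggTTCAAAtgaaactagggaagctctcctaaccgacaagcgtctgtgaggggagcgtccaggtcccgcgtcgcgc
This motif was present in 28 of 37 promoters of measured mitosis genes and in 12.5% of promoters of all genes measured, a contrast that belongs to the list and not to the comparison. Among 2-fold lower and 2-fold higher genes it was in 14.7% and 16.4% of promoters. The E2F motif TTCCCGCC was present in 7 of 37 promoters of replication genes and in 3.92% of all. The NF-kB motif GGAANTTCC was present in 3 of 8 chemokine promoters, in 1.14% of all, in 3.21% among 2-fold lower genes and in 0.781% among 2-fold higher genes.

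Growth machinery also lay below WT by small amounts. Of 38 ribosome biogenesis genes 37 lay below WT (median -0.33), as did 21 of 22 aminoacyl-tRNA synthetases (median -0.33). All 42 respiratory chain genes lay below WT (60.3% of all genes did), with a median of -0.24 and 0 at 2-fold. Their largest difference was that of Uqcrb, a subunit of complex III, at -0.75 over 3 probes. Cytosolic ribosomal proteins, by contrast, had a median of -0.09 over 50 genes, near that of all genes, and 0 of the 50 were 1.5-fold apart. T cell receptor genes also stayed near the median gene, with -0.02 over 25 members. Glycolysis genes had a median of -0.20 over 27 members, with Slc2a3, a glucose transporter, at 0.64 and Tpi1, triose phosphate isomerase, at -0.50. In Dll1-/- against WT the medians were -0.01 for ribosome biogenesis and -0.06 for the synthetases. They were -0.12 for the respiratory chain and -0.14 for cytosolic ribosomal proteins.

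**Figure D5:**
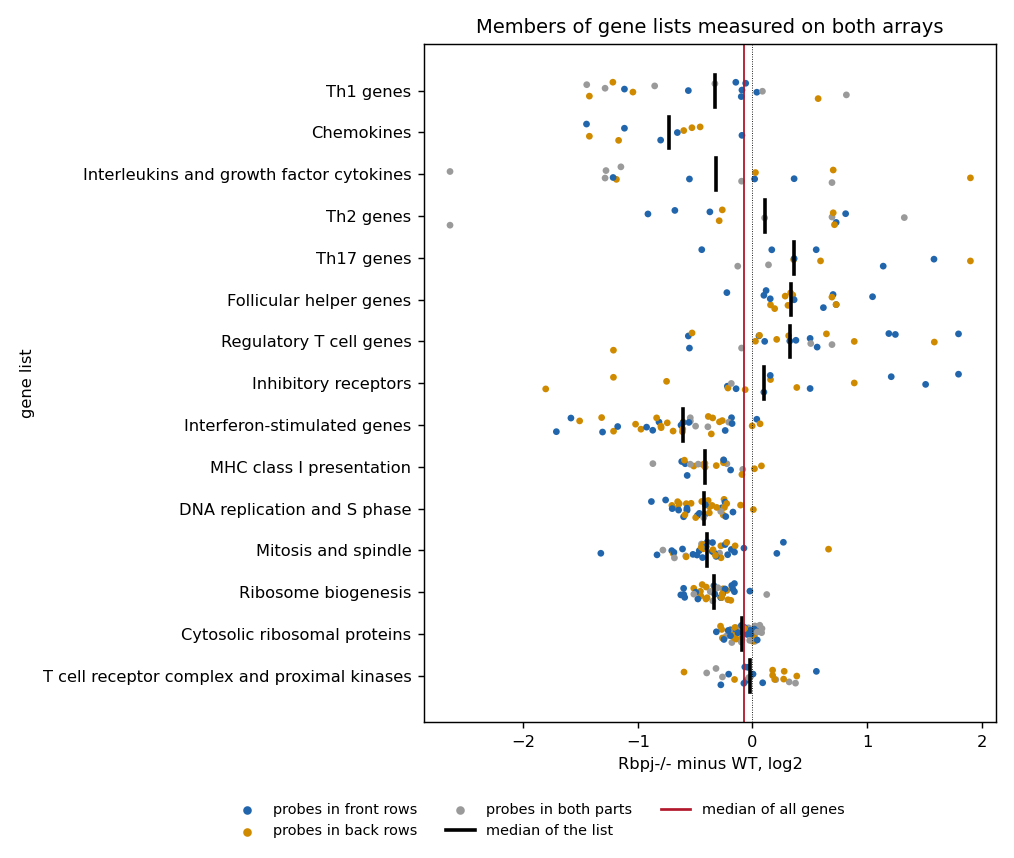
Differences (log2, Rbpj-/- minus WT, x axis) of the measured members of 15 gene lists, coloured by the array rows of their probes (front, back or both parts), with a black bar at each list's median and a red line at the median of all genes, -0.07. The interferon, chemokine, replication and mitosis lists lie left of the red line, the Th17, follicular helper and regulatory lists right of it, and the ribosomal proteins around it.

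Inhibitors of T cell receptor and cytokine signals had single members apart in both directions. Of 29 signal brakes 17 lay above WT and the median was 0.04. At 2-fold 0 were higher and 2 lower (1.95% of all genes were). Dusp10, a phosphatase of JNK and p38, read 2.27 in WT, 2.19 in Dll1-/- and 0.72 in Rbpj-/-. Socs1, the inhibitor of interferon and IL-2 signals, read 5.70, 5.59 and 4.49 (both genes in the back rows). Cish, another inhibitor in the Stat5 pathway, differed by -0.83. Its relative Socs2 went the other way at 0.51 over 3 probes, and Dusp4 at 0.78. Among 23 signal-induced early genes 0 were 2-fold apart and the median was -0.21, with Jun at -0.99 and Tnfaip3, an inhibitor of NF-kB, at -0.73. Nr4a1 and Egr2, reporters of receptor signalling, differed by 0.01 and -0.20.

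IL-2 and Stat5 response genes were lower in part. Of 23 measured members 3 were 2-fold lower and 0 higher, with a median of -0.41. The 10 members with probes in the front rows had a median of -0.43 and the 9 in the back rows a median of 0.06, so this median depends on which part of the array is read. Pim3, a survival kinase, differed by -0.75 and Ccnd2, the D-type cyclin, by -0.70, while Pim1 differed by 0.19 and Prdm1, which encodes Blimp1, by 0.30. Stat5a itself read 4.26 in WT and 3.53 in Rbpj-/-.

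The series title concerns survival signals of activated helper T cells. Of 24 anti-apoptotic and survival genes 1, Bcl2, was 2-fold lower and 0 were higher, with a median of -0.02. Mcl1, the other main Bcl2 relative of T cells, read 5.24 in WT, 5.11 in Dll1-/- and 4.78 in Rbpj-/-, a difference of -0.45 over 2 probes. Bcl2l1, which encodes Bcl-xL, gave -0.96 and 0.08 at its 2 probes, which do not point one way. Birc5, which encodes survivin and is also a mitosis gene, differed by -0.68 over 3 probes. On the other side Bcl2l2 differed by 0.87 and Igf1r by 0.82. Of 35 pro-apoptotic genes 1 was 2-fold higher and 0 lower, with a median of -0.06. That gene, the inflammatory caspase Casp4, read 3.04, 3.39 and 4.06, and both its probes lay above WT, by 1.0 and 1.03.

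Outside these lists the largest single difference was that of Esm1, which encodes the secreted proteoglycan endocan. It read -2.32 in WT, -2.13 in Dll1-/- and 2.15 in Rbpj-/-, a difference of 4.46 (back rows). Lalba, a milk protein gene, read -1.29, -0.77 and 1.79, and Prg4, which encodes lubricin, -1.67, -1.53 and 0.40, both in the back rows. In these 3 genes the Dll1-/- reading lay close to WT. Scg2, a secretogranin, differed by 1.81, and Acvrl1, a receptor of the BMP family, by 1.80, but Acvrl1 was also higher in Dll1-/- (-1.81 in WT, -0.64 in Dll1-/- and -0.01 in Rbpj-/-). Slc15a2, a peptide transporter, read -1.92, 0.12 and 0.06, so that WT alone stood low.

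Higher genes at middle and high levels were few. Cpne7, a copine of the calcium-dependent lipid-binding family, read 1.38 in WT, 1.64 in Dll1-/- and 4.09 in Rbpj-/-, a difference of 2.71 (front rows). S100a4 and S100a6, calcium-binding proteins of effector and memory cells, read 2.45 and 2.66 in WT, 3.0 and 3.06 in Dll1-/-, and 4.08 and 4.21 in Rbpj-/-. The 2 probes of S100a4, 1 in each part of the array, gave 1.58 and 1.69. Npas4, an activity-induced transcription factor, read 3.38, 3.77 and 4.51, and Slc8a3, a sodium-calcium exchanger, 4.71, 4.13 and 5.83, both in the back rows. Ramp3, a partner of the adrenomedullin receptor, differed by 1.24. Lgmn, the lysosomal protease legumain, read 0.99, 0.84 and 3.03, a difference of 2.04 (front rows).

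Genes measured by at least 3 probes add a check between probes. Ces2c, a carboxylesterase, differed by 1.55 over 3 probes in the back rows, and its relative Ces2b by 2.19 at 1 probe. The pair may share probe signal. Trps1, a GATA-type repressor, differed by 1.14 with probes between 1.04 and 1.24, and Ntrk3, a neurotrophin receptor, by 1.02 (both in the front rows). On the lower side Zfp945, a zinc finger gene, differed by -1.49 over 3 probes in the back rows. Among all 2809 genes with several probes, 12 had probes at least 1.5-fold apart from WT in opposite directions, and Ahnak, a large scaffold protein named by the rule at 0.64, was one such gene, with probes from -0.70 to 1.36.

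Lower genes at high levels covered transporters, enzymes and adhesion molecules. Pdlim4, a cytoskeletal PDZ and LIM protein, read 5.42 in WT, 5.17 in Dll1-/- and 3.22 in Rbpj-/-, a difference of -2.20 (front rows). Slc2a6, a hexose transporter, read 4.03, 4.06 and 2.17, and Hal, histidine ammonia lyase, 4.75, 5.10 and 3.19 (both in the front rows). Jaml, a costimulatory adhesion molecule, read 3.70, 3.72 and 2.10, and Gpc6, a glypican, 3.56, 3.60 and 2.08 (both in the back rows). Ncoa7 differed by -1.49 over probes in both parts of the array, and the kinase gene Pak6 by -1.39 from 6.16 in WT. In each of these genes the Dll1-/- reading lay far nearer to WT than to Rbpj-/-.

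Further lower genes lay in the back rows. Pros1, which encodes the anticoagulant protein S, a ligand of the TAM receptors, read 1.83 in WT, 1.69 in Dll1-/- and -0.94 in Rbpj-/-, a difference of -2.76. Atf3, a stress-induced transcription factor, read -0.23, -0.18 and -1.96, and Rell1, a TNF receptor relative, 1.79, 1.80 and 0.18. Acat3 differed by -1.72, Tnp2 by -1.70, Ccdc102a by -1.83 and Gbx2 by -1.73.

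Another set of lower genes, singled out after their values were seen, had WT alone standing high, with probes in the front rows. Aspg read -0.47 in WT, -2.49 in Dll1-/- and -2.83 in Rbpj-/-, and Cmtm4 -0.02, -3.32 and -1.97. Krt42 read -0.91, -3.39 and -2.89. Cntfr, Ndst4, Hoxc5 and Olfr1157 were dim in Rbpj-/-, at -2.76, -2.77, -2.65 and -2.71, and not well above background in Dll1-/-. In Aspg, Cmtm4 and Krt42 both knockout arrays thus read low, whereas Il4, Dtx1, Pros1 and Pdlim4 read low in Rbpj-/- alone.

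Genes well above background on 1 of the 2 arrays have bounds only, set against the lowest signal well above background on the dim array. Of 522 genes above background in Rbpj-/- alone, 123 were at least 2-fold higher, and of 507 in WT alone, 172 were at least 2-fold lower. The probes of 82 of the 123 and 151 of the 172 lay in the front rows. The largest higher bounds were those of Olfr550, Hcfc2 and Hspa2, at least 11.6-, 11.1- and 11.1-fold, and the largest lower bounds those of Olfr1311, Adam34l and Psma8, at least 10.9-, 10- and 8.15-fold, all in the front rows. Several of these, such as olfactory receptor and germ cell genes, have no known role in T cells. With the 5th percentile of signals above background as the floor, 50 higher and 112 lower genes remained at 2-fold.

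Markers of cell identity were read on both arrays. For helper T cell identity the 10 measured markers had a median of 0.13. Cd4 read 1.93 in WT and 2.31 in Rbpj-/-, Cd3e 6.75 and 6.68, and Cd2 5.17 and 5.15. Zbtb7b, which encodes the CD4 lineage factor ThPOK, differed by -0.55, but its 3 probes ranged from -1.59 to -0.02. Of 8 measured markers of CD8 T cells 6 lay below WT (60.3% of all genes did). The summed signal of the list, in units of the array's 75th percentile, was 28.0 in WT and 21.8 in Rbpj-/-. This sum is weighted to the brightest members and is not carried by Cd8a or Cd8b1, whose levels lay below that percentile. Cd8a read -0.35 in WT, -0.16 in Dll1-/- and -1.63 in Rbpj-/-, and Cd8b1 -0.16, -0.30 and -0.73. Among NK cell markers 9 of 11 lay below WT (60.3% of all genes did), with a median of -0.55. The 3 members with probes in the front rows had a median of -0.997 and the 6 in the back rows a median of -0.16. The summed signal of the NK list was 542 in WT and 341 in Rbpj-/-. The sum is weighted to the brightest members and is not carried by Gzma, which read 2.00 in WT. The largest differences were those of Gzma, Nkg7, Eomes and Klra7 (-1.0). The defining receptors Ncr1, Klrk1 and Klrc1 were not well above background on either array. Some CD8 and NK markers are shared with the Th1 and granule lists, and their part in those results was not tested.

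Markers of other lineages were read in part. Of 28 B and plasma cell markers 18 were measured, with a median of -0.07 and summed signals of 72.4 and 64.6. Ms4a1, which encodes CD20, read 2.48 in WT and 1.75 in Rbpj-/-. Jchain, the joining chain of secreted antibodies, was the member at 2-fold, with a difference of 2.12 from a WT level of -3.07, and 8 of the 18 lay above WT, while Pax5, Ebf1, Sdc1 and Tnfrsf17 were not well above background. For macrophages 13 of 25 markers with a probe, among them Cd14, Adgre1 and Lyz2, were dim on both arrays. Of the 10 measured macrophage markers 5 lay above WT, 2 were 1.5-fold lower and 0 higher, with a median of -0.04. The summed signal of the macrophage list was 114.7 in WT and 154.5 in Rbpj-/-. For dendritic cells 8 of 22 markers, among them Itgax, Flt3 and Zbtb46, were dim on both arrays. The class II genes H2-Aa, H2-Ab1 and Cd74 sit in the dendritic list too. Of its 13 measured members 9 lay below WT (60.3% of all genes did) and 3 were 1.5-fold lower, with a median of -0.39. The 1 member at 2-fold higher was Ciita, and the summed signal of the list was 768 in WT and 793 in Rbpj-/-.

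Lysosomal and metabolic lists had single members apart. Of 35 lysosome and autophagy genes Lgmn was 2-fold higher, and Npc2, which carries cholesterol out of lysosomes, and Hexa, a hexosaminidase, were 2-fold lower. Npc2 read 5.45 in WT, 4.80 in Dll1-/- and 4.13 in Rbpj-/-, and Hexa 3.85, 4.23 and 2.67 (front rows). Among naive and quiescence genes Igfbp4, a secreted IGF-binding protein, read 5.13, 5.62 and 4.06, the 1 member of 25 at 2-fold, and Tob1, an antiproliferative gene, differed by 0.82. Zbtb16, which encodes PLZF, the regulator of innate-like T cells, read 1.94, 2.15 and 0.71, a difference of -1.22 (front rows). Of 42 lineage transcription factors 4 were 2-fold higher (among them Ikzf2, Foxp3 and Ascl2) and 3 lower (Zbtb16, Eomes and Tbx21).

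Receptors and stress genes outside the lineage lists had few members at 2-fold. Of 30 cytokine receptors 1 was 2-fold higher and 0 lower, with a median of 0.02. That gene, the IL-1 decoy receptor Il1r2, read -1.18 in WT, -0.95 in Dll1-/- and 0.67 in Rbpj-/-, a difference of 1.85 (front rows). Among 25 costimulatory receptors and TNF family genes Tnfsf14, which encodes LIGHT, was the member at 2-fold, with 1.94, 2.08 and 0.90 in the same order (back rows). Of 31 DNA damage and p53 response genes 7 were 1.5-fold lower (6.64% of all genes were) and 1 was 1.5-fold higher (4.46% of all genes were). Their median was -0.21, with -0.06 for 10 members in the front rows and -0.38 for 16 in the back rows. Phlda3, a p53 target that restrains Akt, and Pidd1, a scaffold for caspase activation, both differed by -0.88, and Cdkn1a, which encodes the cell cycle inhibitor p21, by -0.66. Cbs, an enzyme of cysteine synthesis, differed by -1.93, but it also read low in Dll1-/- (-3.21, against -2.93 in Rbpj-/-), so that WT alone stood high.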

How the data were processed

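RNA of stimulated CD4+ T cells was labelled with Cy3 from a 20 ng input and hybridised to 1 Agilent array per genotype. Spot signal intensity was extracted with Feature Extraction 10.7 (per the submitters' processing notes), and the file headers give release 10.7.1.1. The authors' deposited scanner files hold background-subtracted intensity per spot, and their deposited value table holds log2 values that equalled the log2 intensity plus a constant per array. Here log2 signal was set against the 75th percentile of its array with control probes left out, repeated spots and probes of a gene were averaged, and control spots and spots marked as outliers by the software (139 to 163 per array) were left out.

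A gene was compared where its probes were well above background on both arrays. Of 55681 probes 27509 (49.4%) were named through a RefSeq table of GRCm38.p6. No coordinates were given to named probes, because the array was designed on another build. Depth of an array is not a count, and the number of arrays, 1 per genotype, limits the precision. No test was possible. Alternatives were scaling, background correction, filter on dim probes, array rows, outlier spots, a choice of probe and the fold.

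Genes named are those targeted, the largest differences each way (over all genes, in rows 193 to 384, at high levels, and with several probes), the largest bounds, and the members of each list furthest apart. Other list members were chosen with their values in view. Some genes that the rule names are not reported here. The members and lists were chosen with earlier results of these data known. Steps were tested on simulated data with known differences. R 4.3.3, limma 3.58.1, Python 3.11.15, pandas 2.3.3, numpy 2.4.6 and matplotlib 3.10.9 were used.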

Additional observations from a re-analysis of the deposited data

How the results depend on the processing

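Both counts of 2-fold genes, 139 higher and 226 lower, moved by over 1.5 times in at least 1 direction under 8 alternatives. They were 92 and 356 with scaling to each array's median, 33 and 1450 with scaling to the spike-in probes, and 43 and 70 after normexp with quantile normalization. With probes above background on at least 1 array they were 480 and 580, with no filter 993 and 760, and among genes above the median level 18 and 112. With spots of the back rows alone they were 66 and 112, and at 1.5-fold 517 and 769. The cause was not tested, but the filters and the fold change how many genes can be counted. Quantile normalization without background correction, block subtraction, the brightest probe, kept outliers, the front rows alone and the authors' value table kept both counts within 1.5 times. Of the list medians, set against the median of all genes, 3 changed sign: Notch targets (0.0021) and dendritic cell markers (0.0511) with no filter, and the IL-2 and Stat5 response (0.1389) in the back rows alone. No named gene at 2-fold changed sign under any alternative. No paired analysis was possible because each genotype has 1 array and no replicate number. Dim genes are the least certain: 5% to 95% of genes lay between -0.80 and 0.80 in the lowest tertile of level, against -0.57 and 0.29 in the highest.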

Other observations

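Many probes of this array carry no gene name. Of 4560 probes above background on both arrays that the design names only by genome coordinates (mm9), 72 (1.58%) were 2-fold higher and 175 (3.84%) 2-fold lower. Among 4309 probes with another kind of accession 44 (1.02%) were higher and 101 (2.34%) lower. A pair of overlapping loci on chromosome 1 stood together: both probes of the locus chr1:69531191-69570566 (reverse strand in the probe's name) read higher, by 1.61 and 1.66, and the probe of chr1:69555180-69555559, which lies within it, by 1.75, all in the front rows. The largest higher locus probe, at chr11:116936834-116948799, read -2.27 in WT, -2.37 in Dll1-/- and 0.34 in Rbpj-/-. The largest lower locus probe, at chr10:122410471-122422759, read 0.15, -2.05 and -2.26 in the same order, so that WT alone stood high. The next lower one, at chr2:10237649-10287591, read -0.07, -0.54 and -2.27, with Dll1-/- nearer to WT. These loci were chosen after their values were seen, and no gene is assigned to them here.

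Among the 20 measured genes nearest to Rbpj in the RefSeq gene order, 17 differed by between -0.52 and 0.28. The other members were Sod3, an extracellular superoxide dismutase, at -1.47, Rell1 at -1.61 and Tbc1d19, the measured gene next to Rbpj, at 1.32. Sod3, Rell1 and Tbc1d19 were thus at least 2-fold apart, as were 3.15% of all genes. The median difference by chromosome ranged from -0.11 on chromosome 17 to 0.00 on chromosome X, leaving out chromosome Y and an unplaced entry with 1 measured gene each.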
